A study of Mus musculus with 24 samples.

Results

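The Na,K-ATPase is built from a catalytic α subunit and a β subunit, and a small FXYD protein can join them. Of these accessory subunits, 5 genes were followed here: Atp1b1, Atp1b2 and Atp1b3, which encode the β1, β2 and β3 subunits, Fxyd1, which encodes phospholemman, and Fxyd5, which encodes dysadherin. They were taken by gene symbol from the 54232 genes of the count table, through the GENCODE annotation of the mouse genome GRCm38, and each symbol matched 1 gene. The data were RNA-seq libraries of adipose tissue from 24 C57BL6 mice, 10 weeks old per the description of the series, with 1 library per mouse and 6 mice in each of 4 groups. Partial nephrectomy (PNx), in which the right kidney is removed and most of the left kidney is ligated, served as the model of renal failure, and a sham operation as its control. Every mouse received a lentivirus by intraperitoneal injection. It expressed GFP alone or NaKtide under the promoter of adiponectin, an adipocyte gene. NaKtide is a peptide designed against the signalling of the Na,K-ATPase through Src. The groups were Control (Sham, GFP), NaKtide (Sham, NaKtide), PNx (PNx, GFP) and PNx+NaKtide (PNx, NaKtide). The transgene was limited to cells that use the adiponectin promoter, whereas the RNA came from the whole tissue.

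In the pump, the α subunit binds ATP and carries sodium out of the cell and potassium into it. The β subunit is a glycoprotein with 1 membrane-spanning segment, without which α does not leave the endoplasmic reticulum or reach the plasma membrane. The isoforms β1, β2 and β3 differ in where they are found: β1 is the widespread form, β2 is best known from glia and fast muscle, and β3 occurs in many tissues at lower amounts. The FXYD proteins are single-span regulators that set the affinity of the pump for its ions. Phospholemman is the form of heart and skeletal muscle and restrains the pump until it is phosphorylated by protein kinase A or C. Dysadherin is found in epithelia and many other cells and is also known for its effect on cell adhesion.

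Libraries held 679250 to 2979505 counts. All 5 genes together took 4873 of 41811400 counts, or 0.0117%, so each was measured with few reads. At this depth a count of 0 allows up to 3 counts, equal to 0.739 to 5.91 CPM (counts scaled to a common library size with TMM factors) depending on the library. This limit covers counting error only. The RNA was a mixture of cells, in which fewer cells of a type and less RNA per cell cannot be told apart. The adipocyte markers, 12 genes among them Adipoq, Plin1 and Lep, were present in every group. Their medians in PNx were above those in Control for Adipoq (91.8 against 33.8 CPM), Lipe, Pnpla2 and Slc2a4. For the other genes of the list they were below, as for Fabp4 (56.9 against 129 CPM). Summed, they reached 6733 CPM in PNx replicate 6. In NaKtide replicate 6 the sum was 5130 CPM, and 109 to 1109 CPM in the other libraries. The skeletal muscle list (9 genes) came to 4687 CPM in NaKtide replicate 6 and at most 109 CPM elsewhere. Markers of the epididymis (8 genes), an organ outside the labelled tissue, ranged from 2.22 to 2183 CPM. PNx replicates 1, 2 and 3 had the highest sums of the kidney tubule list (7 genes, at 321, 529 and 323 CPM) and of the testis germ cell list (8 genes, at 857, 881 and 929 CPM). Slc34a1 held most counts of the kidney tubule list, 5626 against at most 588 for any other gene. Its median CPM was higher in PNx than in Control (167 against 82.6), as was that of Slc12a1. The medians of Slc12a3 (4.69 against 20.1), Lrp2 (1.29 against 3.78), Aqp2 and Kap were lower in PNx. Of all counts, 79.9% fell in the 16.8% of genes that share exon bases with a gene of the opposite strand, and mt-Nd6, the mitochondrial mRNA of the minus strand, had 67.6 times the counts per kb of the 12 plus-strand mRNAs. The libraries were stranded, and the strand setting of the counting was not given in the sources used here. Reads of a gene's own strand and of the opposite strand therefore cannot be told apart in this table, so the counts of all 5 genes may not be those of their own transcripts. Below, the level of a gene means the reads assigned to it.

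All 5 genes lie on the minus strand. Atp1b1 occupies chr1:164437109-164458355, Atp1b2 chr11:69599736-69605942 and Atp1b3 chr9:96332655-96364442. Fxyd5 (chr7:31032722-31042481) and Fxyd1 (chr7:31051678-31057199) belong to a row of FXYD genes, with Fxyd7 between them. Only 31 bases separate Fxyd5 from Fxyd7, and 210 bases separate Fxyd7 from Fxyd1. The microRNA gene Mir7050 shares 60 exon bases with Fxyd5 on the same strand.

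Promoter sequences are shown for Atp1b1 and Atp1b3 because in CPM each lay above every Control library in 4 of 6 PNx libraries. In FPKM Atp1b2 and Fxyd5 did so as well. The share of all genes with such a separation was not determined. The Atp1b2 promoter was not analysed here. The 150 bases before the RefSeq start are printed 5′ to 3′ on the gene's strand (GRCm38.p6, RefSeq), with capitals for the GC box (GGGCGG), the CCAAT box (CCAAT) or the TATA box (TATAAA), each searched on both strands.
Atp1b1, chr1:164458356-164458505, minus strand: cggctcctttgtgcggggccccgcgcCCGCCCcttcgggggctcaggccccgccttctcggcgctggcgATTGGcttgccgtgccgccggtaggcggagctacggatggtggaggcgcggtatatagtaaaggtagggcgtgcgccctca
Atp1b3, chr9:96364432-96364581, minus strand: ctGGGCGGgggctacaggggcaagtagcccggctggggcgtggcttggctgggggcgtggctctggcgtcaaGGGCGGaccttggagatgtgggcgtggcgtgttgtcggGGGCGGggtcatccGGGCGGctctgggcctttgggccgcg
The Atp1b1 window held 1 GC box and 1 CCAAT box, both on the opposite strand. That of Atp1b3 held 4 GC boxes and neither of the other motifs. Of 32851 promoter windows of this length, 28.6% held a GC box, 24.5% a CCAAT box and 7.57% a TATA box. The G and C content was 71.3% for Atp1b1 and 74.0% for Atp1b3, against a median of 54.0% over all windows. These matches describe letters in the windows and were not tested as sites. RefSeq lists a second start for Atp1b3, whose window (chr9:96363716-96363865) held none of the motifs. For Fxyd1 and Fxyd5 the windows lie within the GENCODE gene and are not shown.

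Levels of different genes can be compared only per length, and for this the deposited FPKM (fragments scaled for depth and gene length) were used. Over the 24 libraries the mean level was 25.5 FPKM for Atp1b1, 5.13 for Atp1b3, 2.62 for Fxyd1, 1.88 for Fxyd5 and 0.170 for Atp1b2. Among the tested genes these means lie at percentiles 90.0, 73.6, 62.2, 55.5 and 8.60. Within Control the medians were 20.1 FPKM for Atp1b1, 2.97 for Atp1b3, 2.67 for Fxyd1 and 1.72 for Fxyd5, and the ranges of Atp1b3 (0.940 to 4.34) and Fxyd1 (1.90 to 3.28) overlap, as do those of Fxyd1 and Fxyd5 (1.21 to 2.1). Atp1b1 had the highest mean of the β genes, but 18.7% of its exon bases are shared with Nme7 of the opposite strand and its reads cannot be told apart from those of Nme7 there. The shares below carry the same limit. The share of Atp1b1 in the β FPKM had a median of 87.4% in Control, 85.6% in NaKtide, 79.5% in PNx and 86.6% in PNx+NaKtide. The share of Atp1b3 was 12.4%, 13.7%, 20.3% and 12.7% in the same order. PNx replicate 6 was the 1 library in which Atp1b3 exceeded Atp1b1, with 53.5% of the β FPKM against 43.1%.

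**Figure D1:**
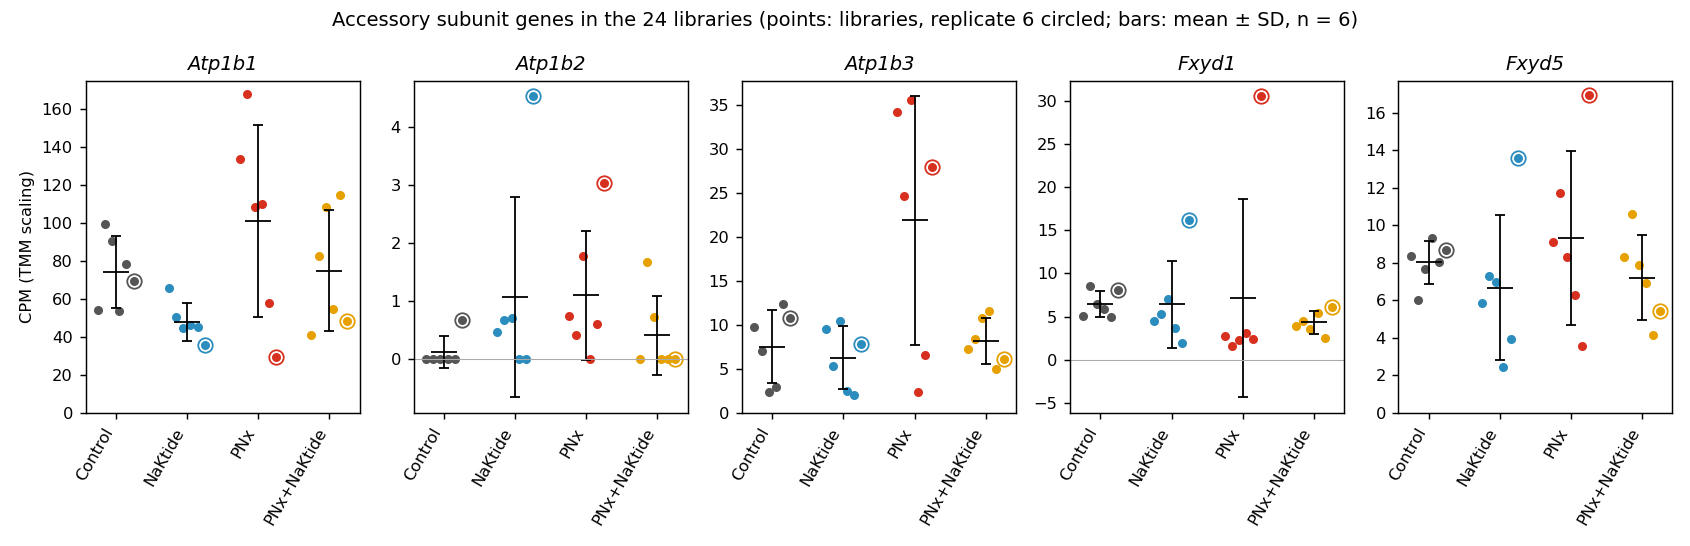
Level of each accessory subunit gene in CPM (TMM scaling; linear y axes that differ between panels) in the 4 groups, with 1 point per library, replicate 6 of each group circled, and bars for mean ± SD (n = 6). Fxyd1 stands at 30.6 CPM in the sixth PNx library and 16.2 CPM in that of NaKtide, and Atp1b3 lies above every Control library in 4 of 6 PNx libraries.

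The first comparison, PNx against Control, asks how renal failure altered these genes. None of the 5 passed edgeR's quasi-likelihood test at a BH-adjusted p-value under 0.1. Across all 26116 genes tested, 0.0766% were called, and 6636 genes (25.4%) had an unadjusted p-value under 0.05. Over all genes the log2 fold changes had a median of 0.36, and over the 5 genes 0.45, with all 5 estimates above 0. Atp1b3 and Atp1b2 were the members with an unadjusted p-value under 0.05.

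Atp1b3 encodes β3. Control libraries held 9.75, 7.0, 2.37, 2.92, 12.3 and 10.7 CPM (replicates 1 to 6), from 4 to 21 counts each. PNx libraries held 34.3, 24.6, 35.6, 2.36, 6.53 and 27.9 CPM, from 3 to 141 counts. Replicates 1, 2, 3 and 6 of PNx lay above every Control library, replicate 5 lay inside the Control range and replicate 4 just below it. The log2 fold change was 1.55 ± 0.53 (SE; 2.93-fold), with an adjusted p-value of 0.14 by edgeR. The call depended on the libraries and the test. Without PNx replicate 4 the log2 fold change was 1.88 with an adjusted p-value of 0.037 by edgeR. Without PNx replicates 1, 2 and 3 the log2 fold change was 0.65 with an adjusted p-value of 0.65 by edgeR. DESeq2 gave 2.20 with an adjusted p-value of 0.0080.

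Atp1b2, the gene of β2, was close to the limit of detection. It had 35 counts in all and none in 12 libraries. Control had a single count, in replicate 6. PNx had 3, 1, 7, 0, 1 and 8 counts in replicates 1 to 6, so that the groups overlap. In summed counts scaled for depth, PNx was 13.3 times Control, with a 95% interval for counting error only of 2.12 to 549. The fitted log2 fold change of 2.88 ± 1.08 depends on the prior count and had an adjusted p-value of 0.14 by edgeR. Of the 20 counts in PNx, 8 came from replicate 6, the library with the highest adipocyte marker sum. Without that library the log2 fold change was 2.38 with an adjusted p-value of 0.14 by edgeR. Without Control replicate 6, which holds the single Control count, the log2 fold change was 4.16.

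Atp1b1, the gene of β1, showed a wide spread after PNx. Control libraries held 53.8, 99.6, 90.5, 53.7, 78.3 and 69.6 CPM, and PNx libraries 134, 168, 108, 110, 57.6 and 29.1 CPM. Thus 4 of 6 PNx libraries lay above every Control library, and replicate 6 lay below all of them. The log2 fold change was 0.45 ± 0.36, with an adjusted p-value of 0.41 by edgeR. Without PNx replicates 1, 2 and 3 the estimate turned to -0.22. DESeq2 gave 1.04 with an adjusted p-value of 0.051.

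Fxyd1, the gene of phospholemman, changed direction without 1 library, PNx replicate 6. Control libraries held 5.11, 8.51, 6.51, 5.83, 4.94 and 8.03 CPM. PNx libraries held 2.71, 1.62, 2.27, 3.14, 2.38 and 30.6 CPM. Hence in CPM 5 of 6 PNx libraries lay below every Control library and replicate 6 lay above them all. In FPKM PNx replicate 1, at 1.99, lay inside the Control range of 1.90 to 3.28. The counts were 11, 4, 9, 4 and 4 in PNx replicates 1 to 5, against 8 to 17 in Control. With all libraries the log2 fold change was 0.14 ± 0.60, with an adjusted p-value of 0.89 by edgeR. Without PNx replicate 6 it was -1.41 ± 0.44, with an adjusted p-value of 0.077, and 14.8% of all genes were called in that fit. With all libraries, limma voom, which gives outlying libraries less weight, placed Fxyd1 at -1.35 with an adjusted p-value of 0.0041.

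Replicate 6 of PNx and replicate 6 of NaKtide, the libraries highest in Fxyd1, were also those with the highest adipocyte marker sums. NaKtide replicate 6 had the highest skeletal muscle sum as well, at 4687 CPM, against 34.3 CPM in PNx replicate 6. In the other 22 libraries Fxyd1 lay between 1.62 and 8.51 CPM. Within PNx, replicates 1 to 5 had adipocyte sums of 282, 271, 261, 244 and 446 CPM, against 274 to 792 CPM in Control. In CPM, though not in FPKM, Fxyd1 was lower in all 5 of these PNx libraries than in any Control library. The sums combine markers that went opposite ways between PNx and Control. The part of tissue composition in these values was not tested.

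**Figure D2:**
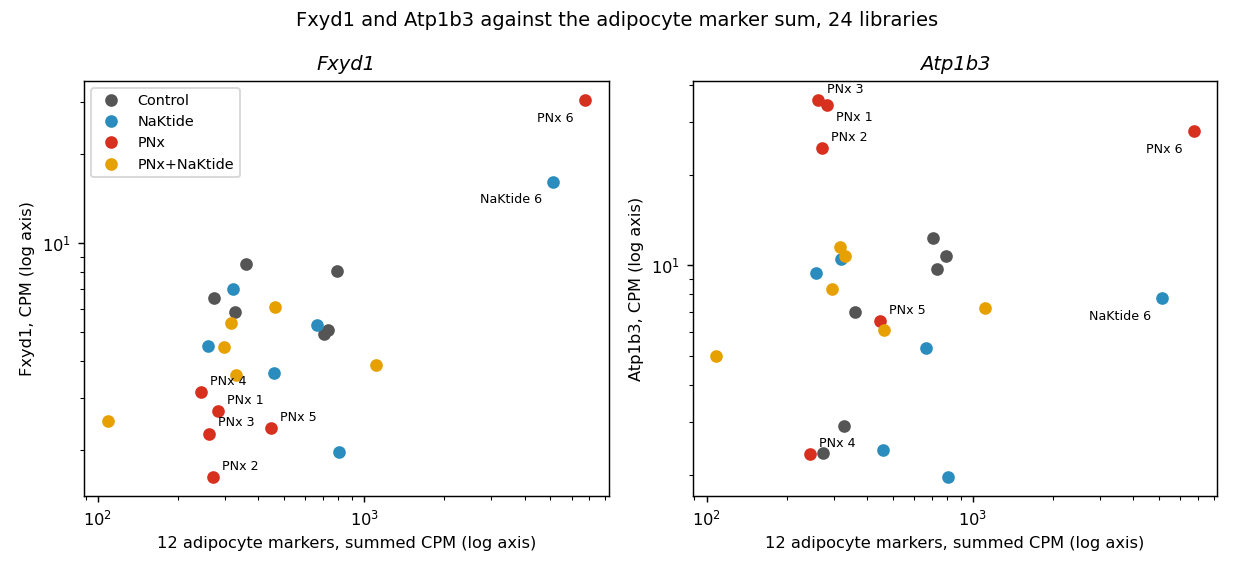
Level of Fxyd1 (left) and Atp1b3 (right) in CPM against the summed CPM of 12 adipocyte markers, all axes logarithmic, with 1 point per library coloured by group and the PNx libraries and NaKtide 6 named. PNx 6 (6733 CPM of markers) and NaKtide 6 (5130 CPM) stand apart from the other 22 libraries and are highest in Fxyd1, whereas Atp1b3 was as high in PNx 1 and 3 as in PNx 6.

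Fxyd5, the gene of dysadherin, did not separate these groups in CPM. Control held 8.36, 6.00, 7.69, 9.34, 8.02 and 8.70 CPM, and PNx 9.12, 11.7, 8.33, 6.28, 3.56 and 17.0 CPM. The ranges overlap and the highest value was again that of PNx replicate 6. The log2 fold change was 0.23 ± 0.40 with an adjusted p-value of 0.72 by edgeR, and 2 SE on either side of it span -0.57 to 1.02. Without PNx replicate 6 the edgeR estimate of Fxyd5, too, fell below 0, to -0.023. With all libraries DESeq2 gave 0.72 with an adjusted p-value of 0.15. Within the FXYD pair the share of Fxyd1 in the summed FPKM was 54.0% to 73.1% in Control. In PNx it was 36.3%, 20.9%, 34.3%, 48.9%, 56.1% and 77.5% in replicates 1 to 6, below the Control range in the first 4 of them.

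**Figure D3:**
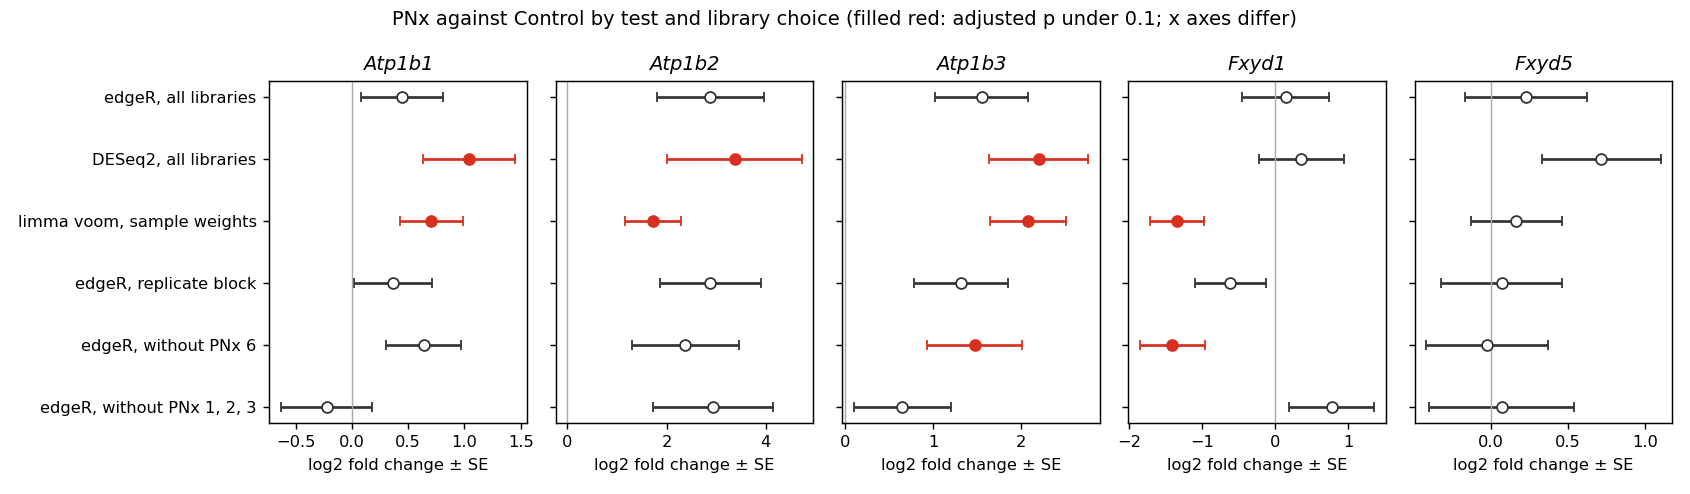
Log2 fold change ± SE (x axes differ) of each gene for PNx against Control under 6 combinations of test and libraries, with filled red points where the BH-adjusted p-value was under 0.1. With all libraries edgeR called none of the 5, Atp1b3 kept a positive estimate in all 6 combinations, and Fxyd1 turned from 0.14 to -1.41 without PNx replicate 6. DESeq2 gave no p-value for Fxyd1, so its point there could not be filled.

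The number of calls in PNx against Control changed with the method for these genes and for the table as a whole. DESeq2 called Atp1b1, Atp1b2 and Atp1b3, as did edgeR with DESeq2 size factors. The shares of all genes called were then 29.7% and 33.3%. DESeq2 gave no p-value for Fxyd1, so that gene could not be called by it. Library size scaling called Atp1b2 and Atp1b3 (15.7% of all genes), and the filterByExpr filter, which drops Atp1b2, called Atp1b3 (17.9%). Limma voom called Atp1b1, Atp1b2, Atp1b3 and, in the lower direction, Fxyd1, where 63.5% of all genes were called. Leaving out PNx replicate 6 and NaKtide replicate 6 together called Atp1b2, Atp1b3 and Fxyd1 (21.8%). Atp1b2 and Atp1b3 were called without PNx replicate 4 (33.2%) and without PNx replicate 5 (23.2%), and Atp1b3 and Fxyd1 without PNx replicate 6. With a share of all genes this high, a call of a member is no sign of something particular to it. The scaling also moved the whole table: the median over all genes was 0.36 with TMM, 0.70 with library size scaling and 0.76 with DESeq2 size factors. Relative to that median, Atp1b1 stood at 0.09, 0.07 and 0.28 under these scalings, and Atp1b3 at 1.19, 1.29 and 1.43. Fxyd1 stood at -0.22, -0.10 and -0.41, and Fxyd5 at -0.13, -0.11 and -0.06, so both were below the median gene although above 0.

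The second comparison, PNx+NaKtide against PNx, asks what the peptide changed after nephrectomy. No member was called, nor was any of the 26116 genes (0.0% by edgeR), while 3309 genes (12.7%) had an unadjusted p-value under 0.05. All 5 estimates were below 0, with a median of -0.72, beside a median of -0.37 for all genes. The groups overlapped for each gene. PNx is the reference here and the tested group in the first comparison, so both share its libraries and opposite signs are no independent result.

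Atp1b3 had 7.20, 8.36, 10.7, 11.5, 4.99 and 6.11 CPM in PNx+NaKtide, and all of these libraries lay within the ranges of Control and of PNx. Its log2 fold change was -1.43 ± 0.53, with an adjusted p-value of 0.36 by edgeR and of 0.054 by DESeq2, which called 5.8% of all genes. The kidney tubule and testis germ cell sums were highest in PNx replicates 1, 2 and 3. Without these libraries the log2 fold change of Atp1b3 was -0.55 with an adjusted p-value of 0.68 by edgeR. Atp1b1 had 41.0, 82.5, 109, 54.5, 115 and 48.2 CPM, with a log2 fold change of -0.43 ± 0.36 and an adjusted p-value of 0.53 by edgeR. This log2 fold change turned to 0.20 without PNx replicates 1, 2 and 3. With all libraries limma voom called both genes, together with 42.4% of all genes. Atp1b2 had 3 counts in replicate 2, 1 in replicate 3 and none in the other 4 libraries, and PNx+NaKtide was 0.359 times PNx in summed counts (95% interval 0.0892 to 1.07, counting error only).

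Fxyd1 held 3.87, 4.46, 3.57, 5.37, 2.50 and 6.11 CPM in PNx+NaKtide, between the lower 5 PNx libraries and Control in its median of 4.17 CPM. The log2 fold change of -0.72 ± 0.61 (adjusted p-value 0.54, edgeR) became 0.83 without PNx replicate 6 (adjusted p-value 0.32) and -1.39 without PNx replicates 1, 2 and 3 (adjusted p-value 0.28). Fxyd5 held 4.16 to 10.6 CPM with a median of 7.38 CPM, and a log2 fold change of -0.37 ± 0.40 with an adjusted p-value of 0.62 by edgeR.

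**Figure D4:**
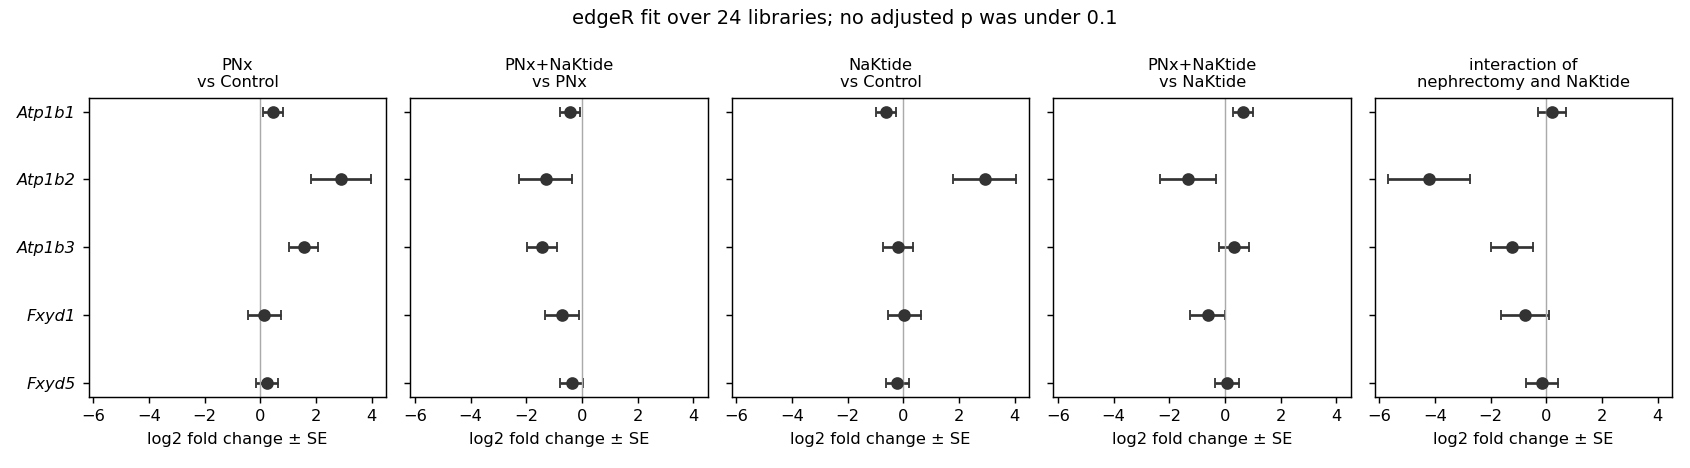
Log2 fold change ± SE of the 5 genes in the 5 comparisons (1 panel each, common x axis), from the edgeR fit over all 24 libraries. None had a BH-adjusted p-value under 0.1; Atp1b2 has the widest errors, and Atp1b3 lies at 1.55 in PNx against Control and at -1.43 in PNx+NaKtide against PNx.

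NaKtide against Control shows the peptide without nephrectomy. No member and no other gene was called by edgeR (0.0%), and 1031 genes (3.95%) had an unadjusted p-value under 0.05. DESeq2 called 3 genes and limma voom 2, none of them members. For Fxyd1, DESeq2 gave no p-value in this comparison. For Atp1b1, NaKtide libraries held 65.8, 50.4, 44.7, 46.0, 45.3 and 35.6 CPM, of which 5 of 6 lay below every Control library. The log2 fold change was -0.63 ± 0.36, with an unadjusted p-value of 0.096 and an adjusted one of 1.0 by edgeR. Atp1b2 had 10 counts, of which 7 were in replicate 6. That library also had the highest skeletal muscle sum, and β2 is known from fast muscle; the part of the muscle in this value was not tested. Without it the log2 fold change of Atp1b2 fell from 2.92 to 1.62, with an adjusted p-value of 1.0 by edgeR in both fits.

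The other members differed by less than 1 SE in NaKtide against Control. Atp1b3 held 1.97 to 10.5 CPM (-0.20 ± 0.54), and Fxyd5 2.42 to 13.6 CPM (-0.22 ± 0.41). Fxyd1 held 4.50, 5.31, 6.98, 3.63, 1.97 and 16.2 CPM, and its log2 fold change of 0.04 ± 0.61 became -0.47 without replicate 6. The highest Fxyd1 and Fxyd5 values of the group both came from replicate 6.

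PNx+NaKtide against NaKtide gives nephrectomy in animals that carried the peptide. Again edgeR called no gene (0.0%), and 1067 genes (4.09%) had an unadjusted p-value under 0.05. DESeq2 called 2 genes and limma voom 0, and no member was among them. Atp1b1 was higher in PNx+NaKtide by a log2 fold change of 0.64 ± 0.36 (unadjusted p-value 0.090, adjusted p-value 1.0, edgeR), with 3 of 6 libraries above every NaKtide library. Atp1b3 stood at 0.32 ± 0.54, Fxyd5 at 0.07 ± 0.41, Fxyd1 at -0.62 ± 0.63 and Atp1b2 at -1.33 ± 1.00, each with an adjusted p-value of 1.0. The Atp1b2 estimate rested on NaKtide replicate 6, which holds 7 of the 10 counts of its group, and was -0.034 without it. Without PNx+NaKtide replicate 2 it was -2.63. With all libraries, intervals of 2 SE include 0 for all 5 and span -0.77 to 1.40 for Atp1b3.

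The interaction tests whether the effect of nephrectomy differed with and without NaKtide. By edgeR no member was called, nor any gene (0.0%), while 2421 genes (9.27%) had an unadjusted p-value under 0.05. The median over all genes was -0.35. Atp1b2 had -4.22 ± 1.46 with an adjusted p-value of 0.49, on 35 counts. Atp1b3 had -1.23 ± 0.75 (adjusted p-value 0.61) and Fxyd1 -0.76 ± 0.87 (adjusted p-value 0.76), and without PNx replicate 6 Fxyd1 was at 0.79. Without PNx replicates 1, 2 and 3, Atp1b3 was at -0.35, Fxyd1 at -1.42 and Atp1b1 at 0.88. Atp1b1 (0.19 ± 0.51) and Fxyd5 (-0.15 ± 0.57) lay within 1 SE of 0, and Atp1b1 turned negative under the other scalings. DESeq2 called 94 genes and no member. Limma voom called Atp1b2 and Atp1b3, and 25.2% of all genes.

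The overlap with Nme7 bears on Atp1b1 in particular. At its 3′ side it overlaps Nme7, a gene for a nucleoside diphosphate kinase family protein of the opposite strand, and 575 of its 3081 exon bases (18.7%) are shared. Reads of Nme7 and Atp1b1 in the shared bases cannot be told apart. The other 4 members share no exon base with an opposite-strand gene in the annotation, but the limit on the strand of the counts holds for them as well.

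Nme7 had 13991 counts, 3.94 times those of Atp1b1. Per length, Nme7 was 2.83 to 5.27 times Atp1b1 in Control, 2.61 to 4.25 times in NaKtide and 1.51 to 3.8 times in PNx+NaKtide. In PNx replicates 1 to 6 the ratio was 0.347, 0.660, 0.624, 3.76, 4.38 and 1.90. Replicates 1, 2 and 3 of PNx thus had more FPKM assigned to Atp1b1 than to Nme7, which no library of another group did. In PNx against Control, Nme7 had a log2 fold change of -0.72 ± 0.41 with an adjusted p-value of 0.24 by edgeR, the opposite sign to Atp1b1. Without PNx replicates 1, 2 and 3 both were below 0, Nme7 at -0.15 and Atp1b1 at -0.22. Without PNx replicate 4 Nme7 was at -1.26 with an adjusted p-value of 0.042, and limma voom gave -1.66 with an adjusted p-value of 5.5e-05.

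**Figure D5:**
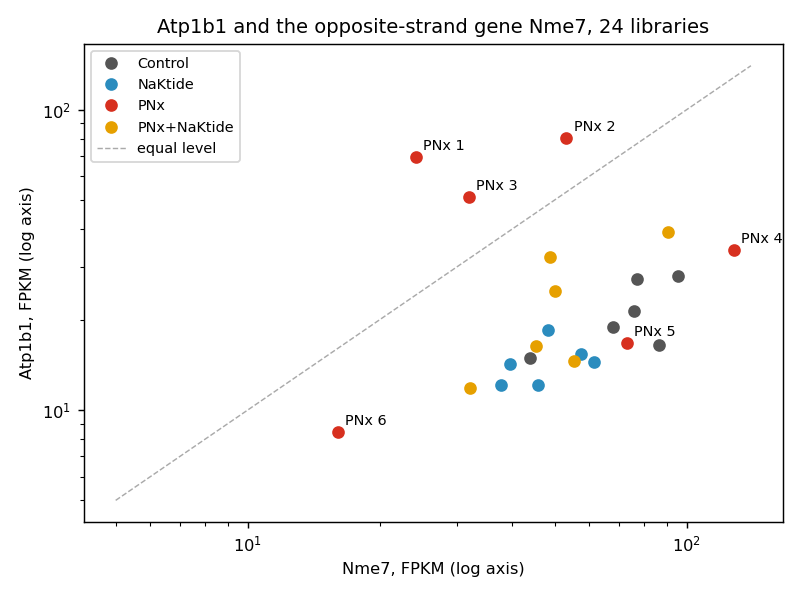
Level of Atp1b1 against that of Nme7, the gene on the opposite strand over its end, in deposited FPKM on logarithmic axes, with 1 point per library coloured by group, the PNx libraries named and a dashed line of equal level. PNx 1, 2 and 3 lie above the line and the other 21 libraries below it.

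Other genes of the pump and of sodium transport were taken from 7 lists of 38 genes, of which 37 could be tested and Atp1b4, with 2 counts, could not. None was called in any of the 5 comparisons by edgeR. In PNx against Control 25 estimates were above 0 and 12 below, with a median of 0.54 beside 0.36 for all genes. An unadjusted p-value under 0.05 was found for 10 of them in the higher and 1 in the lower direction, where 25.4% of all genes had one (4838 higher and 1798 lower). In PNx+NaKtide against PNx 13 were above 0 and 24 below, with a median of -0.46 beside -0.37.

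Atp1a4, which encodes the catalytic isoform of sperm, was at 43.4, 20.2, 60.6, 1.57, 0.594 and 7.93 CPM in PNx replicates 1 to 6 against 0.583 to 8.64 CPM in Control. Replicates 1, 2 and 3, the libraries with the highest testis germ cell sums (857, 881 and 929 CPM), lay above every Control library and the other 3 inside the Control range. The part of tissue composition in these values was not tested. The log2 fold change of Atp1a4 was 2.33 ± 1.01 with an adjusted p-value of 0.17 by edgeR.

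Of the 5 other FXYD regulators, Fxyd3 had the highest mean, at 12.9 FPKM, above Fxyd1 and Fxyd5. In PNx against Control it stood at -0.11 ± 0.34. Fxyd2, the γ subunit of the kidney, had 1.87 ± 0.85 with an adjusted p-value of 0.18, and Fxyd4 -1.98 ± 0.80 with an adjusted p-value of 0.15 by edgeR. Fxyd2 had 108 counts in all and Fxyd4 55. Fxyd7, which lies between Fxyd5 and Fxyd1, had -0.41 ± 0.58. Among the 7 genes for kinases and phosphatase subunits that act on phospholemman, 6 had estimates above 0, led by Prkca at 2.07 ± 0.98 and by Ppp1r1a at 1.77 ± 1.17. The median over all genes was itself above 0, at 0.36. Prkca had 53 counts in all and none in 12 libraries. The adjusted p-values of the 7 genes lay between 0.13 and 0.87 by edgeR, the lowest that of Ppp1cc (1.42 ± 0.42).

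The sodium-coupled transporters and sodium channels (14 genes) had a median of 0.57, with 10 estimates above 0. Scnn1a, the α subunit of the epithelial sodium channel, had -1.30 ± 0.69 with an adjusted p-value of 0.23 by edgeR. The 4 NKAIN genes, whose proteins bind β1, had a median of 0.11.

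Across the 24 libraries the members did not share 1 pattern. The Spearman correlation of log2 CPM was 0.57 between Atp1b2 and Atp1b3, 0.57 between Atp1b3 and Fxyd5, 0.20 between Atp1b1 and Atp1b3, and -0.49 between Atp1b1 and Fxyd1. In the 18 libraries outside PNx these values were 0.38, 0.38, 0.18 and -0.14. They are descriptions over libraries that share groups and depth, and no test was made.

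The genes most like each member over the 24 libraries, among 8421 named genes with a mean of at least 5 CPM, differed from member to member. For Atp1b1 they were Scyl3 (0.92), Cnp (0.90) and Rffl (0.90). For Atp1b3 they were Psmf1 (0.96), Samm50 (0.95) and Upf3a (0.94), and outside PNx the same genes stood at 0.94, 0.93 and 0.90. Those of Atp1b2 were Atpaf2 (0.81), Smarca2 (0.80) and Psmd8 (0.79). Those of Fxyd1 were Nmt1 (0.79), Myh14 (0.79) and Zbtb7b (0.77), which fell to 0.62, 0.74 and 0.55 outside PNx. Fxyd5 was followed by Dusp1 (0.80), Nr3c1 (0.80) and Lpin1 (0.79). The genes named for Atp1b1 and for Fxyd1 all share exon bases with an opposite-strand gene, as do Smarca2 and Dusp1, whereas those named for Atp1b3 do not.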

How the data were processed

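RNA of 24 adipose tissue samples, 6 mice in each of 4 groups, was sequenced in stranded mRNA libraries, and groups were taken from the labels. Per the methods of the study, the authors trimmed reads with Trimmomatic 0.38, aligned them to GRCm38 with HISAT2 2.1.0 and counted them per gene with GenomicAlignments. The strand setting and the annotation release are not given in the sources used here. Deposited were raw counts and FPKM, scaled by 1 size factor per library. The deposited normalized counts were not used.

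Genes with more than 10 counts over the 24 libraries were tested (26116) with edgeR 4.0.16 (R 4.3.3; TMM scaling, robust quasi-likelihood F-test, 1 fit of 4 group means, BH-adjusted p-value under 0.1 over all genes). SE is the size of the log2 fold change over the square root of F. CPM use TMM scaling. The members and gene lists were chosen with earlier results of these data known. By rule the text names the members, catalytic subunits, called genes of the lists, opposite-strand genes and the 3 genes most like each member; single genes of the lists were also named after their values were seen. Some genes that the rule names are left out here. Alternatives used DESeq2 1.42.0 and limma 3.58.1 (voom with sample weights; log2(FPKM + 1) and log2(FPKM + 0.1), which understate changes of low genes), other scalings and filters, a replicate block and fits without libraries. The procedure was tested on simulated data. Equal replicate numbers were not taken as pairs. The deviations of same-numbered libraries correlated between -0.59 and 0.71 and were above 0.1 in 12 of 24 pairs. In PNx+NaKtide against PNx they were above 0.1 in 4 of 6 pairs. Differently numbered libraries were not compared, so these values cannot settle whether the numbers pair the libraries. No libraries were duplicates.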

Additional observations from a re-analysis of the deposited data

Results flagged for a closer look

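In 4 of 20 gene and group combinations, 1 library stood apart from the other 5 (gap over range above the Dixon value of 0.625 for 6 samples). For normally distributed values chance flags about 1 in 20 groups. That rate does not hold for Atp1b2, whose counts are near 0. A single count among libraries without counts, as in Control, always gives a gap over range of 1. Fxyd1 was at 30.6 CPM in PNx replicate 6, where the next library had 3.14 CPM. It was at 16.2 CPM in NaKtide replicate 6, where the next had 6.98 CPM. These are also the libraries with the highest adipocyte marker sums, and NaKtide replicate 6 had the highest skeletal muscle sum as well. The part of tissue composition was not tested. Atp1b2 was at 4.53 CPM (7 counts) in NaKtide replicate 6, where the next had 0.698 CPM. In Control replicate 6 it was at 0.669 CPM, which is 1 count where the other 5 libraries had none. By edgeR no interaction of nephrectomy and NaKtide was called for a member, while limma voom called those of Atp1b2 and Atp1b3 (adjusted p-values 0.045 and 0.076).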

How the results depend on the processing

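Depth limits all 5 genes, Atp1b2 most. Of 340 values of single genes under the other settings, 287 kept their direction and side of the threshold. A further 19 kept their direction and passed the threshold, and 34 changed direction. Of 600 values without 1 library, 583 kept both, 5 kept their direction and passed the threshold, and 12 changed direction. Some values that changed direction also passed the threshold, such as Fxyd1 in PNx against Control by voom and without PNx 6. For PNx against Control edgeR called none of the 5 genes; 3 were called by DESeq2 and with DESeq2 size factors, 2 with library size scaling, 1 with filterByExpr (which drops Atp1b2), 4 by voom and 3 without PNx 6 and NaKtide 6; without 1 library the count ranged from 0 to 2, with 2 without PNx 4, 5 or 6. For PNx+NaKtide against PNx DESeq2 called 1 and voom 2, and voom called 2 in the interaction. All other settings called none. DESeq2 gave no p-value for Fxyd1 in PNx against Control or in NaKtide against Control. The cause of these changes was not tested.

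Directions changed as follows (log2 fold changes). In PNx against Control, Atp1b1 was -0.22 without PNx 1, 2 and 3. Fxyd1 was -1.35 by voom, -0.61 with the replicate block, -0.17 on log2(FPKM + 1) with or without the filter, -0.35 on log2(FPKM + 0.1) and -1.41 without PNx 6 and NaKtide 6, with a range of -1.41 to 0.35 without 1 library. Fxyd5 was -0.023 without PNx 6 and NaKtide 6 (-0.023 to 0.39). In PNx+NaKtide against PNx, Atp1b1 was 0.20 without PNx 1, 2 and 3, and Fxyd1 0.83 by voom and 0.84 without PNx 6 and NaKtide 6 (-0.93 to 0.83). In NaKtide against Control, Atp1b3 was 0.080 by voom, and Fxyd1 -0.28 by voom, -0.27 with the replicate block, -0.088 on log2(FPKM + 1) with or without the filter, -0.18 on log2(FPKM + 0.1) and -0.46 without PNx 6 and NaKtide 6 (-0.47 to 0.18). In PNx+NaKtide against NaKtide, Fxyd5 ranged from -0.094 to 0.40 without 1 library. In the interaction, Atp1b1 was -0.36 with DESeq2 size factors and by DESeq2, -0.10 with library size scaling, -0.076 with filterByExpr, -0.21 by voom, -0.15 on log2(FPKM + 1) with or without the filter, -0.14 on log2(FPKM + 0.1) and -0.072 without PNx 6 and NaKtide 6. Fxyd1 was 1.11 by voom, 0.24 with the replicate block, 0.043 on log2(FPKM + 0.1) and 1.30 without PNx 6 and NaKtide 6 (-0.96 to 0.79). Fxyd5 was 0.16 by voom, 0.12 with the replicate block and 0.42 without PNx 6 and NaKtide 6 (-0.36 to 0.17).

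The replicate numbers were not taken as pairs of libraries. With the number as a block, 0 of the 5 genes were called in each comparison, as without it.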
